A study of Homo sapiens with 6 samples.

Results

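The genes examined here are those of the NF-kB pathway and the chemokines, cytokines and other inflammatory proteins that it is known to control. They were chosen by name, as 35 listed genes, and a gene was read through the probe set that the platform annotation pairs with its symbol alone. In all, 32 of the 35 had such a probe set, 1 each, out of 18404 named genes on the arrays, and IL8 is given under its present symbol CXCL8. TRAF2, BIRC3 and CSF2 were not analysed here. The 32 comprised 12 regulators (subunits, IkB proteins and signalling proteins), 15 chemokines and cytokines, called outputs here, and 5 other effectors.

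The cells were DLD-1, an established line from a human colorectal adenocarcinoma, with mutated APC, described in the study as without endogenous DKK1. DLD-1/DKK1 cells carried a lentivirus that expresses DKK1, a secreted inhibitor of Wnt signalling, in the presence of doxycycline, and DLD-1/Mock cells carried the vector without the gene. Both groups received doxycycline for a day, at 10 mg/ml by the labels and at the same figure in micrograms per ml by the methods, and neither source lists a cytokine or another inducer of NF-kB for these cells. RNA of 3 dishes per group was hybridised to 6 whole-transcript arrays, which gave log2 expression values for 32321 probe sets.

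NF-kB is a family of dimers built from RELA, RELB, REL and the products of NFKB1 and NFKB2. In resting cells IkB proteins hold the dimers in the cytoplasm. Signals from the TNF, interleukin-1 or Toll-like receptors lead through TRAF and IAP proteins to the IkB kinases, the IkB protein is degraded, and the dimer binds kB sites at its target genes. Among these targets are the inhibitors of the pathway itself, such as NFKBIA and TNFAIP3, so that the response is limited by feedback. In the intestinal epithelium the targets include chemokines that attract neutrophils, such as CXCL8, and CCL20, which attracts CCR6-bearing lymphocytes and dendritic cells.

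The promoters of 10 members are shown because NF-kB binds kB sites at its target genes. Of these 10, 6 are listed CXC chemokines from a cluster on chromosome 4. These 6 share a short kB sequence and had unequal fold changes in the arrays. PF4V1, PF4 and PPBP, which lie in the same stretch, were not listed and are not shown. Sequences are from RefSeq (GRCh38.p14), where 31 of the 35 listed genes had an entry, with RELB, NFKBIE, CXCL16 and IL18 the others. Each stretch holds the 110 bases before the annotated start, written 5′ to 3′ in the direction of transcription. In the first 6, capitals mark the 9-letter motif GGAANTTCC, which reads the same on both strands.

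CXCL8 (chr4:73740459-73740568, + strand): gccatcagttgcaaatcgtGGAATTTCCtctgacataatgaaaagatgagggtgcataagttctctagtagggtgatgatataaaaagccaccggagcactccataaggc
CXCL6 (chr4:73836568-73836677, + strand): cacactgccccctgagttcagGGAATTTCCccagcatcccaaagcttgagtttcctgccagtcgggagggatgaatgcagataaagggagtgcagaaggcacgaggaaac
CXCL1 (chr4:73869283-73869392, + strand): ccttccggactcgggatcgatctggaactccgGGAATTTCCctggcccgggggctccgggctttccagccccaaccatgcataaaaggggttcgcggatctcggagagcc
CXCL5 (chr4:73998678-73998787, - strand): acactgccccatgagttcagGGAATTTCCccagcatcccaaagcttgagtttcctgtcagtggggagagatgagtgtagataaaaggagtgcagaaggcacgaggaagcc
CXCL3 (chr4:74038690-74038799, - strand): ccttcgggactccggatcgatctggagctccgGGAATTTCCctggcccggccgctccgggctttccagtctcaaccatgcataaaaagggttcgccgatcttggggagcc
CXCL2 (chr4:74099196-74099305, - strand): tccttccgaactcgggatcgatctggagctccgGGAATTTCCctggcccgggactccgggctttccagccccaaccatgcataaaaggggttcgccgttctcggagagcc

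The motif began 91 bases before the start in CXCL8, 90 in CXCL5, 89 in CXCL6, 78 in CXCL1 and CXCL3 and 77 in CXCL2. By global alignment these stretches fell into near-identical sets. CXCL5 and CXCL6 had 91.0% identical positions. CXCL1 and CXCL2 had 93.7%, and CXCL3 had 90.0% with CXCL1 and 88.3% with CXCL2. CXCL8 had 43.5% to 53.4% with each of the other 5. Pairs across the near-identical sets were similarly low, from 47.8% (CXCL6 and CXCL3) to 55.2% (CXCL5 and CXCL3). The next 4 are shown as a regulator or output outside this cluster.

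NFKBIA (chr14:35404750-35404859, - strand): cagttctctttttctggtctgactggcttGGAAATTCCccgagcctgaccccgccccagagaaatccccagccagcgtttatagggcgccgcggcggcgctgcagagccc
TNFAIP3 (chr6:137867149-137867258, + strand): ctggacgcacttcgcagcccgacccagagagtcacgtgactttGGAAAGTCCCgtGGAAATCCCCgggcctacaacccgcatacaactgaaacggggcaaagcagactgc
CCL20 (chr2:227813732-227813841, + strand): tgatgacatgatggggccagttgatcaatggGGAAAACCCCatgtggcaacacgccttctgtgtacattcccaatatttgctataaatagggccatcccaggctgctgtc
IL32 (chr16:3065293-3065402, + strand): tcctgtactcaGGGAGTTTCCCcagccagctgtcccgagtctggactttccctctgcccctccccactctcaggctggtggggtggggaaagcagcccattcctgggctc

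NFKBIA held the short motif as well, 81 bases before its start. In TNFAIP3, CCL20 and IL32 the capitals mark matches to the longer NF-kB consensus on either strand, of which TNFAIP3 had a pair. Over windows from 250 bases before to 50 bases after the start, the short motif was found in 1.16% of 27305 RefSeq genes (0.965% of 35116 windows) and in 11 of the 28 measured members with a window. The longer consensus, which overlaps it in all of them but CXCL8 and ICAM1, was found in 7.09% of genes (5.91% of windows) and in 15 of the 28. A match is a run of letters and not a measured binding site.

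**Figure D1:**
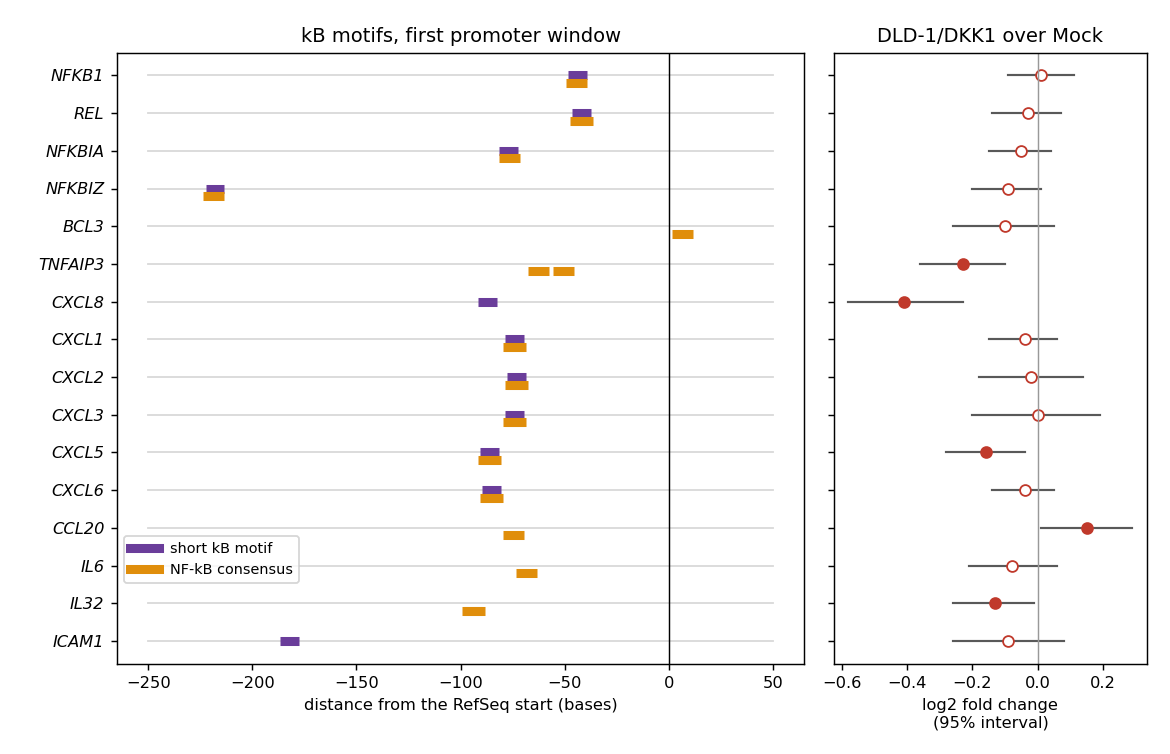
Position of kB motifs relative to the RefSeq start (left, horizontal axis in bases, short motif in purple and the longer consensus in orange, first promoter window of each gene) and the log2 difference of DLD-1/DKK1 relative to DLD-1/Mock arrays with its 95% interval (right, n = 3 per group, filled points for an unadjusted p under 0.05) for 16 measured members with a match. CXCL8, CXCL5, CXCL6, CXCL1, CXCL2 and CXCL3 have the motif 77 to 91 bases before the start, and their fold changes run from -0.41 to near 0.

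The label and the cells were checked on the same arrays. DKK1 lay at 5.30 ± 0.38 (SD, n = 3) on the log2 scale in DLD-1/Mock and at 12.35 ± 0.04 (SD, n = 3) in DLD-1/DKK1 (limma adjusted p = 0.00015; two-sided exact permutation p = 0.1, the smallest that 3 against 3 arrays allow). The epithelial genes EPCAM, CDX2 and CDH17 were bright, at percentiles 98.7, 89.1 and 96.2 of all probe sets, whereas KRT20 was at 32.8. The pan-leukocyte gene PTPRC was at percentile 9.83 with 4.34 in both groups, and the lymphocyte genes MS4A1 and CD3E were at 16.6 and 29.0. The myeloid genes CD68, CSF1R, CD14 and ITGAM lay higher, at 56.6, 43.0, 42.5 and 40.8. LYZ and FCGR3A, also expressed in myeloid cells, were as low as the lymphocyte genes, at 16.1 and 17.0. Array medians were 6.76 to 6.86. Mock 2 was the least similar array. It correlated with the rest at 0.9953 to 0.9969, and pairs without it at 0.9973 to 0.9982. Values without it are given beside several of the members.

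The first question was whether any member differed between cells with and without DKK1. No member passed an adjusted p of 0.05 over all probe sets in limma, where 0.0866% of all probe sets passed, and the smallest adjusted p of a member was 0.207, that of CXCL8. At an unadjusted limma p under 0.05, 7 of 32 members (21.9%) were lower in DLD-1/DKK1, against 5.45% of all genes, and 1 (3.12%) was higher, against 4.67% (10.1% of all genes in either direction). The 7 were CXCL8, TNFAIP3, S100A8, CXCL5, NFKB2, IL32 and S100A9, and the 1 was CCL20. After each array was centred on its median, 3 of these remained lower and 4 members were higher, so that the share of lower ones went from 87.5% to 42.9%, and that of all genes to 1.83% lower and 10.7% higher. The members were listed with earlier results of these arrays known, so their counts are a description.

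In 9 members (28.1%) all DLD-1/DKK1 arrays lay below all DLD-1/Mock arrays, against 9.8% of all genes, and in 3 they lay above, against 9.69%. Of the 32, 24 had a log2 fold change below 0 (75.0%, against 53.6% of all genes), with a median of -0.054 against -0.007. For 23 of the 32 the 95% interval stayed within a 1.2-fold difference in either direction, as for 14001 of the 18404 genes, and the fold changes of members ran from -0.41 to 0.15.

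**Figure D2:**
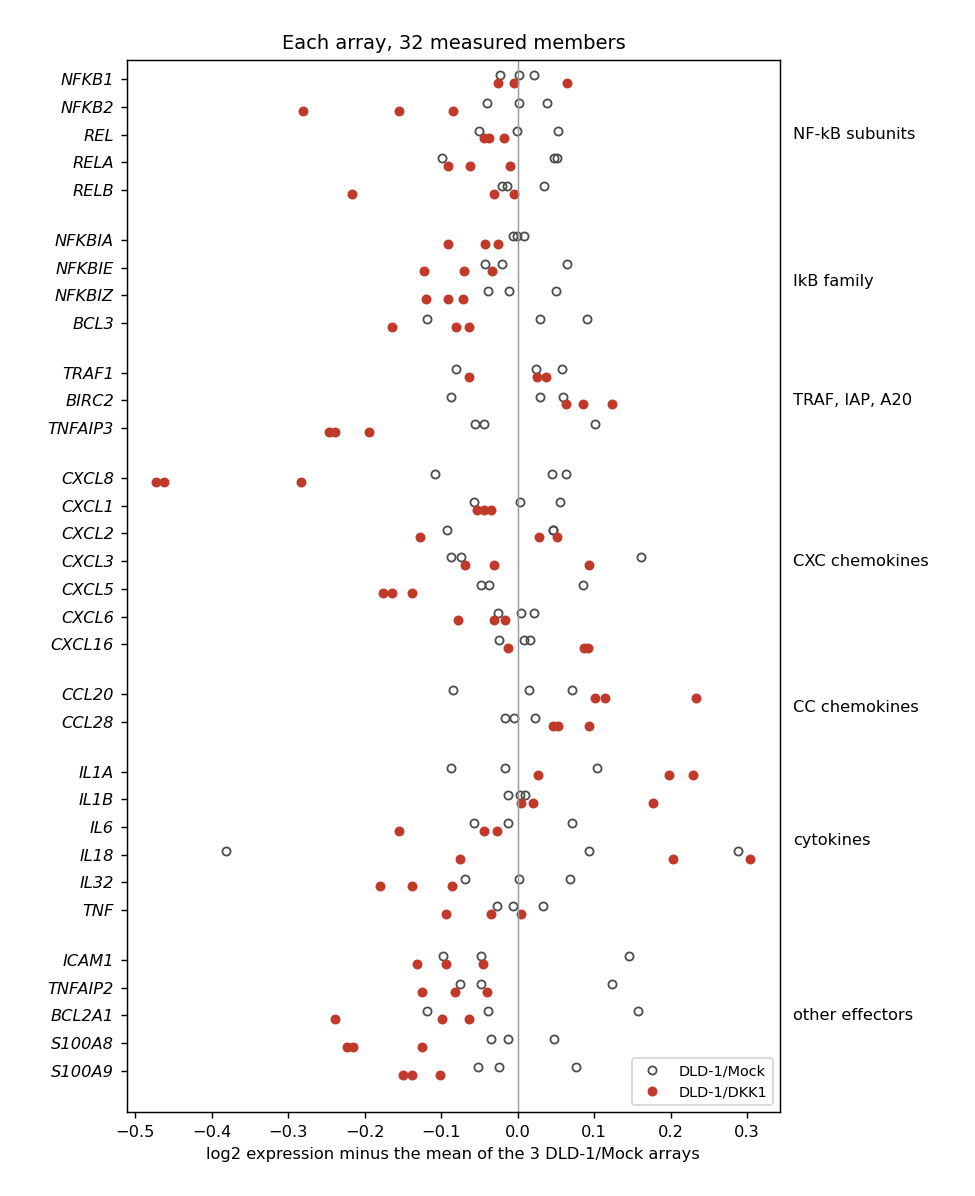
Log2 expression of the 32 measured members on each array, as the distance from the mean of the 3 DLD-1/Mock arrays (horizontal axis; open circles DLD-1/Mock, filled red circles DLD-1/DKK1), ordered by role. The DLD-1/DKK1 arrays lie to the left of all DLD-1/Mock arrays in 9 members and to the right of them in 3, and IL18 has the widest spread.

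Regulators and outputs were then set side by side. Among the 12 regulators 10 had a fold change below 0 and the median was -0.065. Among the 15 outputs 9 were below 0 and the median was -0.016, and the 5 other effectors were all below 0, with a median of -0.13. Median centring moved these values to -0.0127 for the regulators, 8 of them below 0, and to 0.0363 for the outputs, of which 4 remained below 0, so that the direction of the outputs depended on the scaling, and cyclic loess turned it as well (0.00557). The difference between regulators and outputs was not tested.

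Taken array by array, as the median distance from the DLD-1/Mock mean, the regulators lay at -0.021, -0.006 and 0.043 in DLD-1/Mock and at -0.067, -0.032 and -0.060 in DLD-1/DKK1, so the groups did not overlap. The outputs lay at -0.013, 0.005 and 0.003 in DLD-1/Mock and at 0.019, -0.027 and -0.031 in DLD-1/DKK1, which overlapped. The other effectors lay at -0.035, 0.047 and -0.039 in DLD-1/Mock and at -0.132, -0.150 and -0.099 in DLD-1/DKK1, apart by more than the regulators. They were dimmer, at percentiles 26.0 to 76.7 against 40.1 to 93.7 for the regulators. BCL2A1 (26.0) and S100A8 (29.6) among them may not be measured above background. All genes lay between -0.009 and 0.010 on every array. These array values are on the deposited scale and were not computed after median centring. The outputs held both the lowest and the highest fold change of all members, CXCL8 at -0.406 and IL1A at 0.151. IL1A was dim, at percentile 16.2, and CCL20 followed closely at 0.149.

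**Figure D3:**
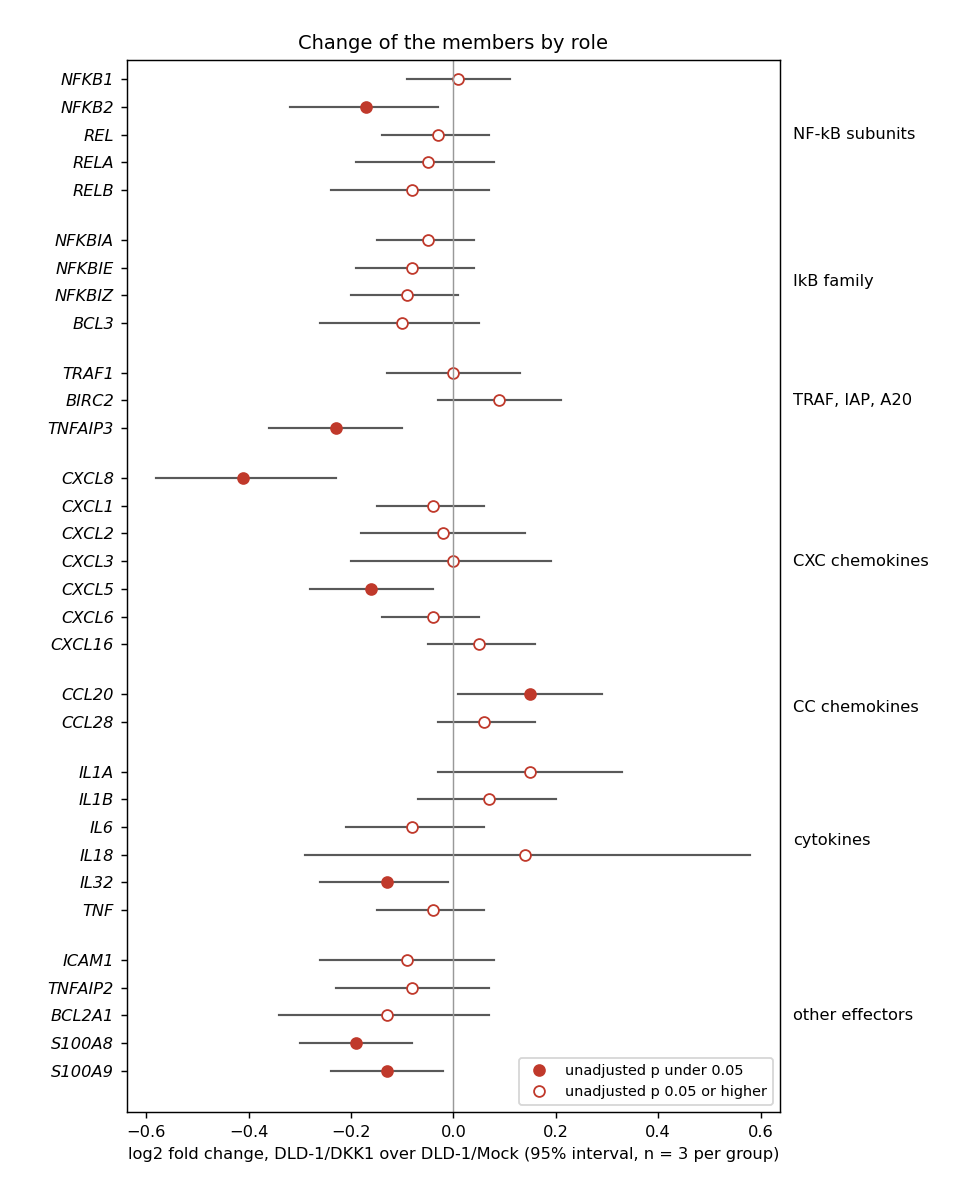
Fold change of DLD-1/DKK1 relative to DLD-1/Mock on the log2 scale (horizontal axis, points for the limma estimate and lines for its 95% interval, n = 3 per group) for the 32 measured members by role. Filled points mark an unadjusted p under 0.05, which 8 members had, CXCL8 lowest at -0.41 and CCL20 at 0.15.

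Of the NF-kB subunits, NFKB2 was lower in DLD-1/DKK1 before adjustment. NFKB2 encodes p100, the precursor of p52 in the non-canonical pathway. Its log2 values were 9.14, 9.18 and 9.22 in DLD-1/Mock and 8.90, 9.10 and 9.03 in DLD-1/DKK1. All DLD-1/DKK1 arrays were below all DLD-1/Mock arrays, and the log2 fold change was -0.17 (SE 0.06; limma adjusted p = 0.503, unadjusted 0.0246). Without Mock 2 the fold change stayed at -0.17 and the unadjusted limma p was 0.0513.

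The other subunits differed by less than the spread between arrays. NFKB1, which encodes p105 and p50, had 10.36, 10.31 and 10.34 in DLD-1/Mock and 10.40, 10.31 and 10.33 in DLD-1/DKK1. The groups overlapped, and the fold change of 0.01 had a 95% interval of -0.09 to 0.11, with a sign that turned under quantile normalisation. RELA, the subunit p65 of the canonical dimer, had 9.99, 10.14 and 10.14 in DLD-1/Mock and 10.02, 10.08 and 10.00 in DLD-1/DKK1. Here too the groups overlapped, at a fold change of -0.05 and an interval of -0.19 to 0.08. REL (-0.03) and RELB (-0.08), the partner of p52, overlapped as well, and REL was above 0 after median centring.

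The IkB family, which retains or directs the dimers, was below 0 in 4 of 4 members, with none at an unadjusted p under 0.05. NFKBIA, the inhibitor that NF-kB itself induces, had 11.34, 11.34 and 11.35 in DLD-1/Mock and 11.30, 11.25 and 11.32 in DLD-1/DKK1. The groups were apart, although the fold change was only -0.05 (SE 0.04; limma adjusted p = 0.674) and -0.000986 after median centring. NFKBIZ, a nuclear IkB protein that acts with p50, was apart in the same way, with 7.75 ± 0.05 (SD, n = 3) in DLD-1/Mock and 7.66 ± 0.02 in DLD-1/DKK1 (log2 fold change -0.09; limma adjusted p = 0.561). NFKBIE (-0.08) and BCL3 (-0.10), a nuclear coactivator of p50 and p52 dimers, overlapped, with -0.04 and -0.06 without Mock 2.

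TNFAIP3 had the lowest fold change among the regulators. It encodes A20, a ubiquitin-editing enzyme that ends NF-kB signalling from the TNF receptor and is induced by the pathway. Its log2 values were 8.16, 8.15 and 8.30 in DLD-1/Mock and 8.01, 7.96 and 7.96 in DLD-1/DKK1. The arrays did not overlap, and the log2 fold change was -0.23 (SE 0.05; 95% interval -0.36 to -0.10; limma adjusted p = 0.388, unadjusted 0.00487). It ranked 271 from the lowest of 18404 genes by fold change. The unadjusted p stayed under 0.05 in 16 of 16 alternatives. BIRC2, the IAP ubiquitin ligase cIAP1, lay on the other side, with 9.18 ± 0.08 (SD, n = 3) in DLD-1/Mock and 9.27 ± 0.03 in DLD-1/DKK1 (log2 fold change 0.09, and 0.05 without Mock 2; limma adjusted p = 0.617), and the adaptor TRAF1 had -0.000949.

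CXCL8, the neutrophil attractant interleukin-8, showed the largest difference of all members. Its log2 values were 7.77, 7.62 and 7.79 in DLD-1/Mock and 7.27, 7.26 and 7.44 in DLD-1/DKK1. The highest DLD-1/DKK1 array was below the lowest DLD-1/Mock array. The log2 fold change was -0.41 (SE 0.07; 95% interval -0.58 to -0.23), or a level of 0.755 of that in DLD-1/Mock, with a limma adjusted p of 0.207 and an unadjusted p of 0.00107. It ranked 38 from the lowest of 18404 genes. Leaving out 1 array gave -0.468 to -0.373, the adjusted p ranged from 0.0779 to 0.604 over the 16 alternatives, and the unadjusted p was under 0.05 in 16 of them.

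CXCL5, which acts on neutrophils through CXCR2, was bright (percentile 92.2) and lower too. It had 11.09, 11.22 and 11.10 in DLD-1/Mock and 10.97, 11.00 and 10.96 in DLD-1/DKK1. Without overlap between the groups, its log2 fold change was -0.16 (SE 0.05; limma adjusted p = 0.474, unadjusted 0.0155) and -0.12 without Mock 2. Its unadjusted p was above 0.05 after median centring, where the fold change was -0.108.

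CXCL1, CXCL2, CXCL3 and CXCL6, which also act through CXCR2, lay close to 0. CXCL1 had 8.42 ± 0.06 (SD, n = 3) in DLD-1/Mock and 8.37 ± 0.01 in DLD-1/DKK1, a log2 fold change of -0.04 with an interval of -0.15 to 0.06. CXCL2 had -0.02 with an interval of -0.18 to 0.14, CXCL3 had -0.00245 with -0.20 to 0.19 (0.08 without Mock 2), and CXCL6 had -0.04 with -0.14 to 0.05. All 4 overlapped between groups and were above 0 after median centring. CXCL6 was dim, at percentile 34.6, and differences of dim probe sets are compressed on these arrays. CXCL1, CXCL2 and CXCL3 are close paralogs whose probes may share signal, which was not tested. CXCL16, a transmembrane chemokine that binds CXCR6, had 0.05.

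CXCL8 was also compared with each of these 5 neighbours within an array, a set of pairs picked after the values were seen. Relative to CXCL1 its change was -0.36, relative to CXCL2 -0.39 and relative to CXCL6 -0.36, and in each of these the arrays of the groups did not overlap (two-sided exact permutation p = 0.1, the smallest possible; 0.167 adjusted over the 5 pairs). Relative to CXCL3 it was -0.40 and relative to CXCL5 -0.25, where the groups overlapped (exact permutation p = 0.2, and 0.2 adjusted). The value against CXCL6 rests on a dim probe set, and CXCL8 was taken as the member with the largest difference.

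The CC chemokines were above 0. CCL20, the ligand of CCR6, had 7.20, 7.30 and 7.36 in DLD-1/Mock and 7.39, 7.52 and 7.40 in DLD-1/DKK1. The groups did not overlap, and the log2 fold change was 0.15 (SE 0.06; limma adjusted p = 0.533, unadjusted 0.0435), and the unadjusted p stayed under 0.05 in 8 of 16 alternatives and was 0.069 without Mock 2. CCL28, an epithelial chemokine of mucosal plasma cells and T cells, had 8.50 ± 0.02 (SD, n = 3) in DLD-1/Mock and 8.56 ± 0.03 in DLD-1/DKK1, again without overlap (log2 fold change 0.06; limma adjusted p = 0.63).

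Among the cytokines IL32, a proinflammatory cytokine of epithelial and lymphoid cells, was lower before adjustment. It had 7.02, 7.09 and 7.16 in DLD-1/Mock and 7.01, 6.91 and 6.95 in DLD-1/DKK1. The highest DLD-1/DKK1 array was just under the lowest DLD-1/Mock array, and the log2 fold change was -0.13 (SE 0.05; limma adjusted p = 0.524, unadjusted 0.0364). It had an unadjusted p under 0.05 in 6 of 16 alternatives, and 0.0665 without Mock 2.

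TNF, which activates the pathway through its own receptors, was dim at percentile 37.7. It had 5.88, 5.94 and 5.90 in DLD-1/Mock and 5.82, 5.88 and 5.91 in DLD-1/DKK1. The groups overlapped, and the fold change of -0.04 (95% interval -0.15 to 0.06) was above 0 after median centring and cyclic loess. The interleukin-1 ligands IL1A (percentile 16.2) and IL1B (22.3) and the acute-phase cytokine IL6 (25.2) were dimmer, below the percentile of 28.5 at which DKK1 lay in DLD-1/Mock cells, so their transcripts may not be measured above background. Their fold changes were 0.15, 0.07 and -0.08, and IL1A had 0.20 without Mock 2, with an unadjusted limma p of 0.0353. IL18, a cytokine that epithelial cells store as a precursor, was bright but spread widely. Its values were 9.07, 8.60 and 9.27 in DLD-1/Mock and 9.28, 9.18 and 8.90 in DLD-1/DKK1, and its fold change of 0.14 (SE 0.18) became -0.05 without Mock 2.

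The other effectors were led by S100A8 and S100A9, whose products form calprotectin, an antimicrobial protein of neutrophils and inflamed epithelium. S100A8 had 5.41, 5.49 and 5.43 in DLD-1/Mock and 5.23, 5.22 and 5.32 in DLD-1/DKK1. S100A9 had 6.09, 6.06 and 6.19 in DLD-1/Mock and 5.98, 5.96 and 6.01 in DLD-1/DKK1. Neither overlapped between groups. The log2 fold changes were -0.19 for S100A8 (SE 0.05; limma adjusted p = 0.398, unadjusted 0.00589) and -0.13 for S100A9 (SE 0.05; limma adjusted p = 0.519, unadjusted 0.0319). The unadjusted p stayed under 0.05 in 15 of 15 alternatives for S100A8 and in 7 of 15 for S100A9. Both were dim, at percentiles 29.6 and 40.0. S100A8 lay near the percentile of 28.5 that DKK1 had in DLD-1/Mock cells, so its transcript may not be measured above background.

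Markers of leukocytes, in which S100A8 and S100A9 are abundant, were read beside them. Of 9 such markers, 6 were below 0 (66.7%, against 53.6% of all genes), with a median of -0.025, and 2 (22.2%, against 5.45%), CD68 (-0.26) and CD14 (-0.27), were lower at an unadjusted limma p under 0.05 (0.00356 and 0.0117), while none passed after adjustment. Their mean log2 level was 5.51 to 5.59 over the DLD-1/Mock arrays and 5.47 to 5.48 over the DLD-1/DKK1 arrays. Their percentiles ran from 9.83 for PTPRC to 56.6 for CD68, on a scale that has no 0. Of 10 fibroblast and endothelial markers, 8 were below 0, with a median of -0.061 and none at an unadjusted p under 0.05. The samples were dishes of the DLD-1 line and not a tissue, so these values do not measure numbers of leukocytes or stromal cells. Any link between these markers and the S100A8 and S100A9 values was not tested.

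The remaining effectors overlapped between groups. ICAM1, the adhesion molecule for leukocyte integrins, had -0.09, and -0.02 without Mock 2. TNFAIP2, a cytosolic TNF-induced protein, had -0.08, also -0.02 without Mock 2. BCL2A1, an anti-apoptotic BCL2 relative and NF-kB target, had -0.13 with a wide interval of -0.34 to 0.07, and -0.19 without Mock 2. At percentile 26.0 it lay below DKK1 in DLD-1/Mock cells too, so it may not be measured above background.

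Other genes of the pathway were read from lists set beside the members. Of 23 genes of NF-kB activation and feedback none passed after adjustment. At an unadjusted limma p under 0.05, 4 were lower (17.4%, against 5.45% of all genes) and 1 was higher (4.35%, against 4.67%). The latter was the adaptor TRAF5, with 7.77 ± 0.04 (SD, n = 3) in DLD-1/Mock and 8.00 ± 0.07 in DLD-1/DKK1 (log2 fold change 0.23; limma adjusted p = 0.323). MAP3K14, the kinase NIK that drives the processing of p100, had -0.20 (limma adjusted p = 0.444), and the IkB protein NFKBID had -0.17 (0.483). The median of the list was -0.028.

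Receptors and antagonists of the member ligands had 0 of 19 past the adjusted threshold and 2 lower before adjustment (10.5%, against 5.45% of all genes). These were IL18BP, which neutralises interleukin-18 (-0.21; limma adjusted p = 0.443), and TNFRSF1B, TNF receptor 2 (-0.15; 0.514). CXCR1 and CXCR2, the receptors of the neutrophil chemokines, had -0.046 and 0.060 and were dim, at percentiles 16.5 and 13.8. Toll-like receptors and cofactors likewise had 0 of 11 after adjustment and 2 lower before it (18.2%, against the same 5.45%), CD14 (-0.27), the lipopolysaccharide co-receptor counted among the leukocyte markers as well, and TLR3 (-0.11), a sensor of double-stranded RNA. Of 19 further chemokines 0 passed after adjustment and 2 were lower before it (10.5%), CCL2 (-0.35; limma adjusted p = 0.476), a monocyte attractant, and CCL8 (-0.16; 0.476).

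Further NF-kB target genes, some of them listed with their values already known, differed most. Of 25, 2 passed after adjustment, both lower, where 0.136% of all genes passed. At an unadjusted limma p under 0.05, 9 were lower (36.0%, against 5.45% of all genes) and 1 was higher (4.0%, against 4.67%). The complement gene C3 fell from 7.64, 7.48 and 7.65 in DLD-1/Mock to 6.55, 6.58 and 6.55 in DLD-1/DKK1 (log2 fold change -1.03; limma adjusted p = 0.00712). LCN2, which binds bacterial siderophores, fell from 11.08, 11.17 and 11.22 to 10.55, 10.59 and 10.53 (-0.60; limma adjusted p = 0.0303). Both differences were larger than that of CXCL8.

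Among the targets that did not pass, CSF1, the macrophage growth factor, had 8.14 ± 0.01 (SD, n = 3) in DLD-1/Mock and 7.81 ± 0.08 in DLD-1/DKK1 (log2 fold change -0.33; limma adjusted p = 0.131). SAA2, an acute-phase protein whose probes may share signal with SAA1, had -0.59 (0.22). PTGS2, the inducible cyclooxygenase, had the opposite sign, with 5.74 ± 0.09 in DLD-1/Mock and 6.27 ± 0.15 in DLD-1/DKK1 (0.53; limma adjusted p = 0.155). CFB, complement factor B, had the highest fold change of the list, 0.59, without an unadjusted p under 0.05, and is named here after its value was seen. This list was set with the values of C3, LCN2 and PTGS2 already known.

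**Figure D4:**
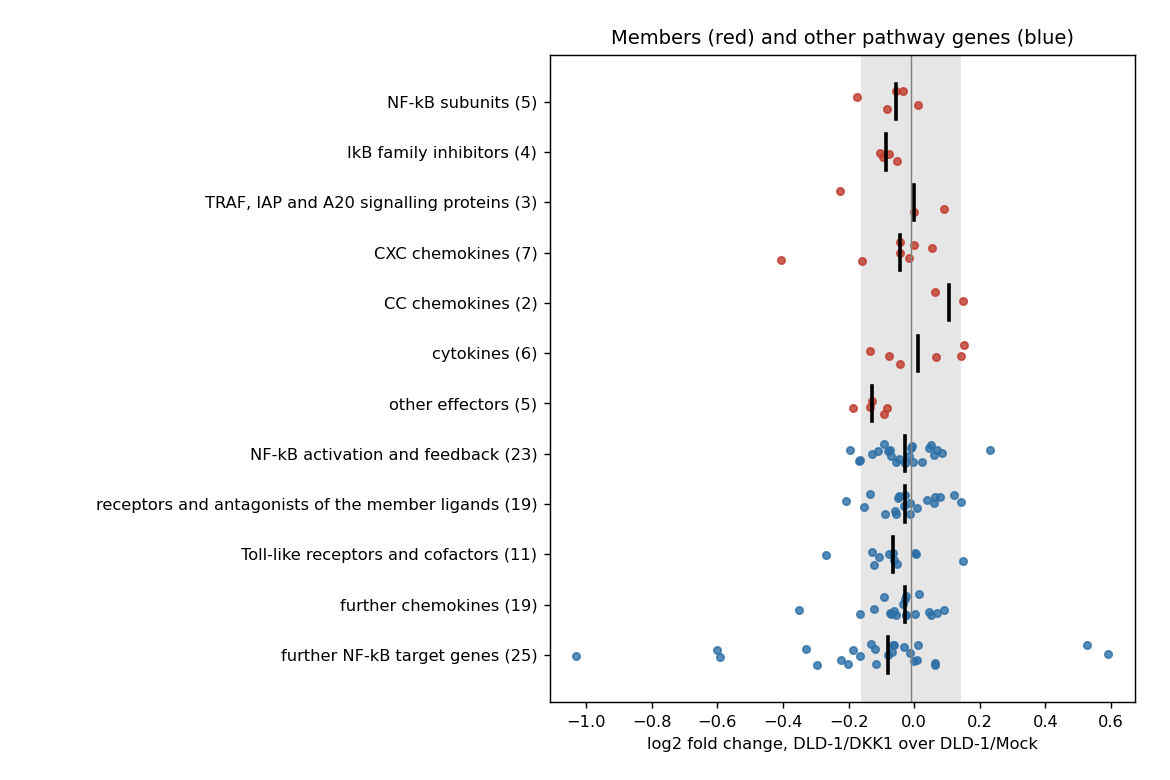
Fold change of DLD-1/DKK1 relative to DLD-1/Mock on the log2 scale (horizontal axis), 1 point per measured gene, of the member groups (red) and of the other pathway lists (blue), with black bars for list medians, the number of genes in brackets, a grey line for the median of all genes and a grey band for their middle 90%, from -0.16 to 0.14. The members stay between -0.41 and 0.15, and the further NF-kB target genes run from -1.03 to 0.59.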

How the data were processed

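RNA was taken from 3 dishes of each group and measured on Affymetrix Human Gene 1.0 ST arrays. The deposited log2 values were made by the authors in R by robust multichip averaging (background correction, equalising of arrays, 1 summary per probe set), so that a change shared by most transcripts is removed and differences of dim probe sets are compressed. Their versions are not given in the sources used here. Samples were grouped by title. The methods call the dishes independent, and p-values measure the spread between them.

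Of 32321 probe sets, 19158 were paired with 1 gene symbol, and symbols were updated through the gene number (19128 matched). One probe set per gene, that with the highest mean, left 18404 genes. A linear model was fitted to all probe sets (limma 3.58.1 under R 4.3.3; lmFit, eBayes; two-sided; 4 residual and 2.56 prior degrees of freedom) and adjusted by Benjamini and Hochberg over all 32321, with a threshold of 0.05. Intervals are at 95%. The fit was tested on simulated data. The members and lists were chosen with earlier results of these data known. All members are named, with every array for those with an unadjusted p under 0.05 and for CXCL8, TNF, NFKB1, RELA and NFKBIA. From other lists, genes that passed and up to 3 more with the smallest p under 0.05 are named. The alternatives are given in the closing section. Precision is limited by the number of arrays. No protein sequences were used here.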

Additional observations from a re-analysis of the deposited data

How the results depend on the processing

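In all, 16 alternatives were run. No member passed under any of them, and 23 of the 32 kept their sign under all that were run on them. A sign could turn only with another scaling, with array weights or with 1 array left out. The other alternatives kept the fold change of each member as it was and changed only its p-values. DKK1 kept its fold change and lost its call without moderation (7.05, limma adjusted p = 0.0646). The members lower at an unadjusted p under 0.05 numbered 3 after median centring and 4 to 7 with 1 array left out, the fewest without Mock 3. Of all genes 1.83% were lower after median centring and 3.28% to 5.97% with 1 array left out, the most without Mock 3. The higher ones numbered 4 after median centring, 2 with array weights, 0 with a trended and robust prior and 0 to 1 with 1 array left out, where CCL20 kept an unadjusted p under 0.05 only without Mock 3. The shares of all genes that were higher in these settings were 10.7%, 5.06%, 5.37% and 2.53% to 4.6%. Without Mock 2, 5 of the 8 remained, where 4.03% of all genes were lower and 3.73% higher. The median of the regulators was -0.0127 after median centring and -0.0902 to -0.0544 with 1 array left out. That of the outputs was 0.0363 after median centring, 0.00557 with cyclic loess and -0.0399 to 0.0119 with 1 array left out, above 0 without DLD-1/DKK1 3. The cause was not tested, although median centring by its construction moved all genes, from a median of -0.007 to 0.045. Signs turned in 9 members under at least 1 alternative. After median centring these were REL (0.0187), TRAF1 (0.0515), CXCL1 (0.00813), CXCL2 (0.0363), CXCL3 (0.05), CXCL6 (0.0103) and TNF (0.0104). With cyclic loess they were NFKB1 (-0.0087), TRAF1 (0.0509), CXCL3 (0.0484) and TNF (0.00557). With quantile normalisation they were NFKB1 (-0.00542), TRAF1 (0.0402) and CXCL3 (0.0437), and with array weights CXCL3 (0.051). With 1 array left out, NFKB1 ran from -0.0153 to 0.0296, TRAF1 from -0.0413 to 0.0308, CXCL2 from -0.0625 to 0.0395, CXCL3 from -0.0503 to 0.0783 and IL18 from -0.0469 to 0.288. The filter on brightness left 21 members. Averaging the probe sets of a gene could not move a member, since each had 1.

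Neither the labels nor the methods pair the same-numbered arrays, and the correlations of their deviations were 0.105, 0.00821 and -0.137. With the replicate number as a block, 1 probe set passed in place of 28. Of the 32 members 0 passed, and CXCL8 had -0.406 with a limma adjusted p of 0.417. At an unadjusted p under 0.05, 6 members were lower and 1 was higher, where 4.03% of all genes were lower and 3.08% higher.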
